A study of Mus musculus with 12 samples.

Results

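Interferon response and antigen presentation genes were examined in cultured mouse oligodendrocyte progenitor cells (OPCs), precursor cells of the brain that mature into oligodendrocytes, which make myelin. The set was a fixed list of gene symbols, chosen with earlier results of these data known. It held genes induced by interferon, sensors of foreign RNA, interferon-inducible GTPases, STAT and IRF transcription factors, and genes of antigen processing. All 34 listed genes were present among the 20540 genes of the deposited table. Of these, 13 encode antiviral effectors (Ifit1, Ifit2, Ifit3, Rsad2, Oasl2, Oas1a, Mx1, Mx2, Bst2, Zbp1, Rtp4, Ifi44 and Xaf1) and 3 belong to RNA sensing (Ifih1, Ddx58 and Trim25). A further 4 are transcription factors (Stat2, Irf1, Irf7 and Irf9), 5 belong to the ISG15 system and other regulators (Isg15, Usp18, Ifi35, Parp14 and Dtx3l), and 4 are GTPases (Gbp2, Gbp3, Igtp and Irgm1). The chemokine gene Cxcl10 and 4 genes of antigen processing and MHC class I (Psmb8, Psmb9, Tap1 and B2m) complete the set.

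Cells of C57BL/6 mouse brain, taken at postnatal day 6 or 7, were kept proliferating in medium that the labels call SATO+PDGFRA. They were transfected with a biotin-tagged miR-27a mimic or a biotin-tagged control mimic, so that both arms carried a tagged mimic and no untransfected cells were among the samples used here. A microRNA mimic is a small synthetic RNA duplex that stands in for the natural microRNA, and RNA bound to a biotin-tagged one can be recovered by pulldown. RNA was sequenced from pulldown under miR-27a mimic, pulldown under control mimic, whole cells under miR-27a mimic and whole cells under control mimic, with 3 libraries in each of the 4 groups. The labels do not say whether the 3 libraries came from separate cultures or animals, so p-values rest on a spread between samples that may be technical. They give neither the sequence nor the dose of the control mimic.

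Type I interferons bind the receptor made of Ifnar1 and Ifnar2, whose kinases phosphorylate STAT factors such as Stat2. Stat2 and Irf9 are parts of a complex that binds the interferon-stimulated response element (ISRE) and switches on antiviral genes, while type II interferon acts through the gamma-activated sequence (GAS). Many cells keep a low level of this program in culture, and glial cells can raise it to present peptides on MHC class I. MicroRNAs act on mRNAs that pair with their seed, bases 2 to 8 from the 5′ end, mostly through sites in the 3′ UTR.

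The seed of miR-27a-3p and its sites in the listed genes are printed because miR-27a is the mimic that both mimic comparisons test. Whole-cell calls in genes with and without a site are set out further below. The mature strand maps to chromosome 8, 84208727 to 84208747, plus strand (RefSeq, GRCm38.p6), and its relative miR-27b-3p, on chromosome 13, shares the seed, given in capitals.
miR-27a-3p: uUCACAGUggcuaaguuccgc
miR-27b-3p: uUCACAGUggcuaaguucugc
Sites were searched in the longest 3′ UTR that the annotation gives each gene as the 8mer ACTGTGAA and the 7mers ACTGTGA and CTGTGAA. Of the 34 genes, 7 (20.6%) held at least 1 site, against 27.9% of the 15560 genes of the table with a 3′ UTR. An 8mer was found in 1 of the 34 (2.94%), against 6.16% of those genes. The median 3′ UTR length was 810 bases in the listed genes and 1082 bases in all. The sites, with the pairing bases in capitals, read as follows.
Rsad2, 8mer at base 272 of the 3′ UTR: tttgtgtggattttACTGTGAAtc
Ifit3, 7mer at base 193: tctctcagctctgtACTGTGAga
Ifit1, 7mer at base 955: gtatgacacagtcaACTGTGAgt
Gbp2, 7mer at base 434: ccttttatctccccACTGTGAca
Ifih1, 7mer at base 394: ttcaagctcctgtcACTGTGAct
Irf9, 7mer at base 449: caagaggcaagaagACTGTGAgt
Trim25, 7mer at base 3344: tcagcccaagacttCTGTGAAtc
Rsad2 also held 7mers at bases 2177 and 2627. A match is a description of the sequence and not evidence that the site is used.

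Promoters were compared because the listed genes are grouped by their response to interferon. RefSeq promoter sequences of 300 bases around the annotated start were at hand for 28 of the 34 genes. The ISRE core GAAANNGAAA, searched on both strands, was found in 15 of these 28 genes (53.6%), against 3.99% of all 27025 genes with a promoter sequence. The GAS core TTCNNNGAA, which reads the same on both strands, was found in 7 of 28 (25.0%), against 9.55%. The 2 motifs overlapped in Bst2. Windows of 100 bases from 6 promoters are shown, 4 with the ISRE core in capitals and 2 with the GAS core in capitals, each on the strand of its gene.
Ifit1, chr19:34640755-34640854, plus strand: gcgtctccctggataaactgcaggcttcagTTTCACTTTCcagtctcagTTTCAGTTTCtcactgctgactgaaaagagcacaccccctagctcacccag
Rsad2, chr12:26456503-26456602, minus strand: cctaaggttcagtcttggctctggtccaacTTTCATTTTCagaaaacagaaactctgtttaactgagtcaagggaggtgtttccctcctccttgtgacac
Gbp2, chr3:142620574-142620673, plus strand: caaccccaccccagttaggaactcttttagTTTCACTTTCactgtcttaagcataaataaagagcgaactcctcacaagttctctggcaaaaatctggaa
Cxcl10, chr5:92349033-92349132, minus strand: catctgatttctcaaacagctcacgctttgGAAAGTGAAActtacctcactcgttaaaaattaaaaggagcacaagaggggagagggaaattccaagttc
Irf1, chr11:53769894-53769993, plus strand: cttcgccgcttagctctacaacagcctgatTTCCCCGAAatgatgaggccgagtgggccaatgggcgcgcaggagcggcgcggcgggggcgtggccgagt
Psmb8, chr17:34198068-34198167, plus strand: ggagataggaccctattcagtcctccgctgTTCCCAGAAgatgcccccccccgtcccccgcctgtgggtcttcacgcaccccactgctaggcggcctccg
Coordinates are those of GRCm38.p6. The 4 genes shown with an ISRE core fell and the 2 shown with a GAS core rose in whole-cell RNA under miR-27a mimic, but the windows are examples: of 6 tested genes with a GAS core, 3 rose (Irf1, Ifi35 and Psmb8), 2 fell (Ifit2 and Igtp) and Bst2 was not called.

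**Figure D1:**
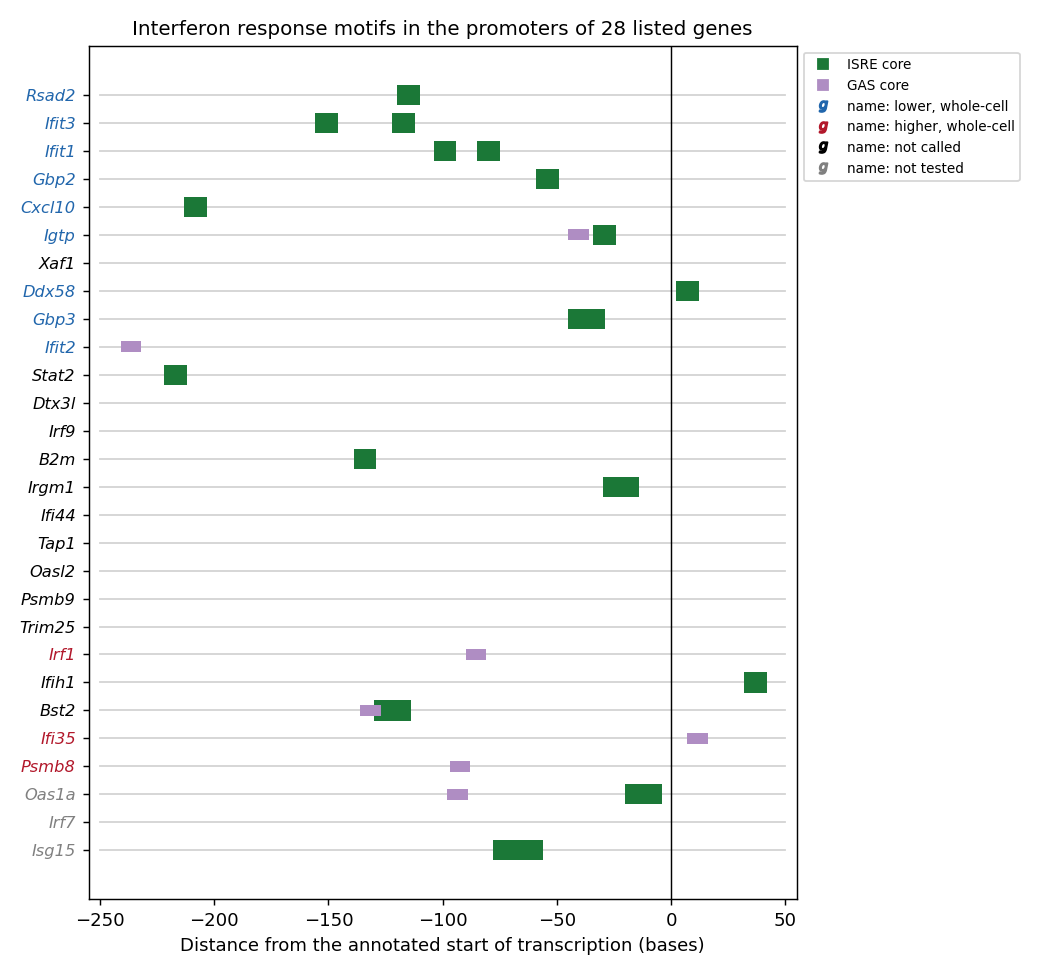
Positions of the ISRE core (green) and the GAS core (purple) along the promoters of 28 listed genes, in bases from the annotated start of transcription; genes run from the largest fall to the largest rise in whole-cell RNA, with genes that were not tested at the bottom. The 8 whole-cell falls among genes with an ISRE core stand toward the top, and the 3 rises, at Irf1, Ifi35 and Psmb8, have a GAS core and no ISRE core in this window, as does Ifit2, which fell; Igtp, which also fell, has both.

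Libraries held 15548418 to 24972188 assigned reads, and values are given as CPM, read counts scaled to the size of the library, recovered from the deposited log2 CPM. Levels of different genes are compared per kilobase of exon, written CPM per kb. B2m, the light chain of MHC class I, was the most abundant of the set at 68.2 CPM per kb in whole-cell RNA under miR-27a mimic and 73.0 under control mimic. Irgm1, a GTPase of cell-autonomous immunity, followed at 16.8 and 17.6 CPM per kb, and Ifit2, an RNA-binding effector, at 12.7 and 14.8. Irf1 was at 7.57 and 6.40 CPM per kb, Mx2 at 7.20 and 8.36, and Gbp3 at 6.43 and 8.05. Of the other effectors, Ifit3 had 3.41 and 6.65, Ifit1 1.62 and 3.19, and Rsad2 0.487 and 1.38 CPM per kb.

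Isg15, the ubiquitin-like protein that is among the strongest interferon responses in many cells, averaged 0.739 CPM in whole-cell RNA under miR-27a mimic and 0.987 CPM under control mimic. It was below the limit for testing, which was 1 CPM or more in 3 or more of the libraries fitted, and so were Irf7, Oas1a, Mx1 and Zbp1. Oas1a was at 0 reads in 4 libraries, including all 3 of pulldown under control mimic, where a count of 0 allows up to 0.116 to 0.180 CPM per library (3 reads, counting error only). Irf7, a factor that amplifies type I interferon production, averaged 0.554 CPM in whole-cell RNA under miR-27a mimic and 0.900 CPM under control mimic. The other 29 genes were tested in whole-cell RNA, and 23 in the pulldown comparison, where Ifit1, Usp18, Oasl2, Ifih1, Ifi44 and Xaf1 also fell below the limit.

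Of the interferon genes themselves, Ifnb1 and Ifna4 each had 1 read in the 12 libraries together. The receptor gene Ifnar1 averaged 102 ± 3.8 CPM in whole-cell RNA under miR-27a mimic and 101 ± 3.7 CPM under control mimic (SD, n = 3 each), and Ifnar2 averaged 43.1 ± 3.5 and 42.6 ± 2.1 CPM. Neither receptor gene passed the test (log2 changes 0.01 ± 0.04 and 0.02 ± 0.06, SE). Of the 5 receptor genes tested, Ifngr2 alone was called, as a rise of 0.17 ± 0.06 (adjusted p = 0.0464).

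Markers of the labelled cell type were present: in whole-cell RNA, Pdgfra averaged 502 ± 11 CPM under miR-27a mimic and 554 ± 5.3 under control mimic, and Olig2 173 ± 5.3 and 139 ± 4.1. Markers of other cells were present too. Gfap of astrocytes averaged 1160 ± 46 and 1330 ± 43 CPM, and Mbp of myelinating cells 2500 ± 140 and 2820 ± 180 CPM. The microglial markers fixed for naming were low, with Aif1 at 0.456 and 0.618, Cx3cr1 at 3.05 and 3.12, Itgam at 3.06 and 3.15, P2ry12 at 1.80 and 2.33 and Tmem119 at 1.32 and 1.01 CPM. All 15 markers on the microglial list summed to 77.3 to 78.6 CPM under miR-27a mimic and 77.0 to 80.4 CPM under control mimic. In such bulk RNA, fewer cells of a type and less RNA per cell cannot be told apart.

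The first comparison asked how whole-cell RNA differed under miR-27a mimic. Of 29 listed genes tested, 14 were past an adjusted p of 0.05, against 24.9% of all 13393 genes tested. The 11 falls stand against 11.9% of all genes called lower, and the 3 rises against 13% called higher. Because the list was chosen with earlier results of these data known, these counts describe the set and are no independent test of it. This also holds for the counts by role that follow, which stand against the same 11.9% and 13% of all genes. The median log2 change was -0.14 in the tested listed genes and 0.01 in all genes. Changes are on log2(CPM + 1), which understates those of low genes. Where groups did not overlap this is described, but its share over all genes was not counted. In whole-cell RNA the groups of Xaf1, Stat2, Trim25 and B2m did not overlap either, and these genes were not called. When all 12 libraries were fitted together, 7 of the 14 calls were lost: Ifit2, Mx2, Ddx58, Irf1, Ifi35, Gbp3 and Igtp. The calls on Rsad2, Ifit3, Usp18, Ifit1, Gbp2, Cxcl10 and Psmb8 held in that fit, and the count for all genes was then 1415. With no filter on low values the calls on Irf1, Ifi35 and Gbp3 were lost (adjusted p 0.0558 to 0.0844).

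Of 10 tested effectors of the antiviral state, 5 fell and none rose, and the median log2 change was -0.21. Rsad2, which encodes viperin, an enzyme that makes a chain-terminating nucleotide, had 1.94, 2.31 and 2.08 CPM under miR-27a mimic, against 6.06, 6.09 and 5.74 CPM under control mimic. All 3 miR-27a libraries were below all 3 controls, a log2 change of -1.16 ± 0.12 (SE, adjusted p = 1.88e-07). Ifit3, of the interferon-induced tetratricopeptide repeat family, had 4.53, 6.27 and 7.03 CPM, against 12.3, 11.7 and 10.9 CPM. Ifit1, of the same family, which binds the 5′ end of foreign RNA, had 3.23, 5.15 and 4.50 CPM, against 7.59, 9.05 and 8.74 CPM. Neither gene's groups overlapped, and the log2 changes were -0.88 ± 0.12 (adjusted p = 7.4e-06) and -0.85 ± 0.13 (adjusted p = 2.78e-05). Mice carry a near-identical copy of Ifit3, and the sources used here do not say how reads that match both were counted.

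The third family member tested, Ifit2, fell by far less. It had 48.9, 52.5 and 48.7 CPM under miR-27a mimic, against 58.5, 57.3 and 58.7 CPM under control mimic (log2 change -0.21 ± 0.05, adjusted p = 0.00286). Ifit2 lies beside Ifit3 and Ifit1 on chromosome 19 (34550694 to 34576419, 34583531 to 34588731 and 34640871 to 34650009, GRCm38), has no ISRE core in its promoter window and no seed site. Mx2, a dynamin-like GTPase that restricts viruses, had 26.0, 25.7 and 26.4 CPM, against 31.7, 28.4 and 30.6 CPM. Its groups did not overlap, the log2 change was -0.21 ± 0.06 (adjusted p = 0.0219), and the call was lost without miR-27a replicate 1 or 2 or control replicate 1 or 3 (adjusted p 0.0608 to 0.0746). The effectors not called ran from Xaf1 at -0.36 ± 0.15 to Bst2 at 0.26 ± 0.16, with Rtp4, Ifi44 and Oasl2 between.

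Among the RNA sensors, Ddx58, which encodes RIG-I, fell, and Ifih1, which encodes MDA5, did not pass the test. Ddx58 had 17.5, 20.0 and 17.2 CPM under miR-27a mimic, against 23.1, 25.0 and 21.1 CPM under control mimic, with no overlap (log2 change -0.32 ± 0.08, adjusted p = 0.00438). Ifih1 averaged 3.27 ± 0.73 and 2.57 ± 0.32 CPM (SD, n = 3 each) with a difference of 0.24 ± 0.15 on the log2 scale (SE, adjusted p = 0.234). Trim25, the ubiquitin ligase that modifies RIG-I, had 9.32, 10.003 and 10.3 CPM, against 7.52, 9.11 and 9.14 CPM (log2 change 0.18 ± 0.10, adjusted p = 0.196). Both Ifih1 and Trim25 hold a miR-27a seed site and were not lower.

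Usp18 is the protease that removes ISG15 from proteins and restrains signalling at the interferon receptor. It had 3.39, 4.62 and 4.84 CPM under miR-27a mimic, against 8.67, 8.28 and 8.61 CPM under control mimic, and the groups did not overlap (log2 change -0.86 ± 0.12, adjusted p = 8.67e-06). No seed site was found in its 3′ UTR. Ifi35, a regulator of innate signalling, rose, with 3.34, 3.67 and 3.21 CPM against 2.10, 2.54 and 2.54 CPM (log2 change 0.38 ± 0.13, adjusted p = 0.0374). Its call was lost without any 1 of 5 libraries, all but control replicate 2 (adjusted p 0.0573 to 0.121), and 290 of its exon bases overlap an antisense gene. Parp14 and Dtx3l, an ADP-ribosyl transferase and a ubiquitin ligase, did not pass, at -0.14 ± 0.12 and -0.12 ± 0.10.

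Of 3 transcription factors tested, 1 rose and none fell. Irf1, a factor induced by both interferon types, had 30.3, 27.3 and 32.7 CPM under miR-27a mimic, against 22.8, 26.8 and 26.8 CPM under control mimic (log2 change 0.23 ± 0.08, adjusted p = 0.0267). The lowest miR-27a value was above the highest control value, and the call was lost without miR-27a replicate 1 or 3 or control replicate 1 (adjusted p 0.0853 to 0.174). Stat2 averaged 28.5 ± 1.5 and 31.4 ± 1.3 CPM and Irf9 23.4 ± 1.2 and 25.3 ± 1.7 CPM, and neither passed (adjusted p = 0.129 and 0.297).

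Interferon-inducible GTPases, which attack the membranes around intracellular pathogens, fell in 3 of 4 cases, with a median log2 change of -0.37. Gbp2 had 11.6, 11.2 and 10.02 CPM under miR-27a mimic, against 16.8, 17.6 and 18.3 CPM under control mimic (log2 change -0.64 ± 0.09, adjusted p = 6.02e-06). Gbp3 had 17.9, 24.7 and 20.4 CPM, against 25.6, 28.0 and 25.2 CPM (log2 change -0.32 ± 0.09, adjusted p = 0.00941). Igtp had 4.31, 4.91 and 5.46 CPM, against 6.95, 6.75 and 6.74 CPM (log2 change -0.41 ± 0.11, adjusted p = 0.00942). The groups did not overlap for any of these, although without miR-27a replicate 1 the calls on Gbp3 and Igtp were lost (adjusted p = 0.0968 and 0.0648). Irgm1 averaged 97.7 ± 4.7 and 102 ± 3.5 CPM and did not pass (-0.06 ± 0.04). Of 6 other tested GTPases of the same families, 4 fell and none rose, with Gbp6 at -0.63 ± 0.09 and Iigp1 at -0.54 ± 0.15 as the largest falls. Members of the Gbp family are alike in sequence, and the share of reads that match several of them is unknown.

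Cxcl10, a chemokine that draws T cells, had 3.29, 4.91 and 3.77 CPM under miR-27a mimic, against 7.20, 5.50 and 5.94 CPM under control mimic. The groups did not overlap, and the log2 change was -0.54 ± 0.13 (adjusted p = 0.00415). None of the 4 antigen-processing genes was called lower. Psmb8, a catalytic subunit of the immunoproteasome, had 7.44, 8.58 and 7.76 CPM, against 5.35, 4.85 and 5.67 CPM, a log2 change of 0.50 ± 0.11 (adjusted p = 0.00134). Its annotated exons share 498 bases with an antisense gene; the library kit keeps strand, but the sources used here do not give the strand setting of the counting. Psmb9 (0.14 ± 0.16), the peptide transporter gene Tap1 (0.11 ± 0.08) and B2m (-0.10 ± 0.05) did not pass. Of 18 other antigen presentation genes tested, 1 rose and 4 fell, and the class I heavy chain genes H2-K1 and H2-D1 did not pass (0.00 ± 0.06 and 0.14 ± 0.06).

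Of 83 tested genes on the 6 lists of other pathway genes, 22 passed (26.5%), 4 higher and 18 lower, against 24.9% of all genes. Of 14 other sensors, adaptors and kinases tested, 1 rose and 3 fell. Among them, Tlr3, a receptor for double-stranded RNA, fell by 0.41 ± 0.10 on the log2 scale and Eif2ak2, the RNA-activated kinase that halts translation, by 0.28 ± 0.05, while Zc3hav1 rose by 0.35 ± 0.11. Of 31 other interferon-induced genes tested, 1 rose and 5 fell, with Herc6, the ligase that attaches ISG15 in mice, at -0.32 ± 0.08, the chemokine Ccl2 at -0.54 ± 0.13 and Ifi30, a lysosomal thiol reductase, at 0.42 ± 0.13. Of 9 further JAK, STAT, SOCS and IRF genes tested, 2 fell, among them Socs3, a feedback inhibitor of cytokine signalling (-0.20 ± 0.06).

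**Figure D2:**
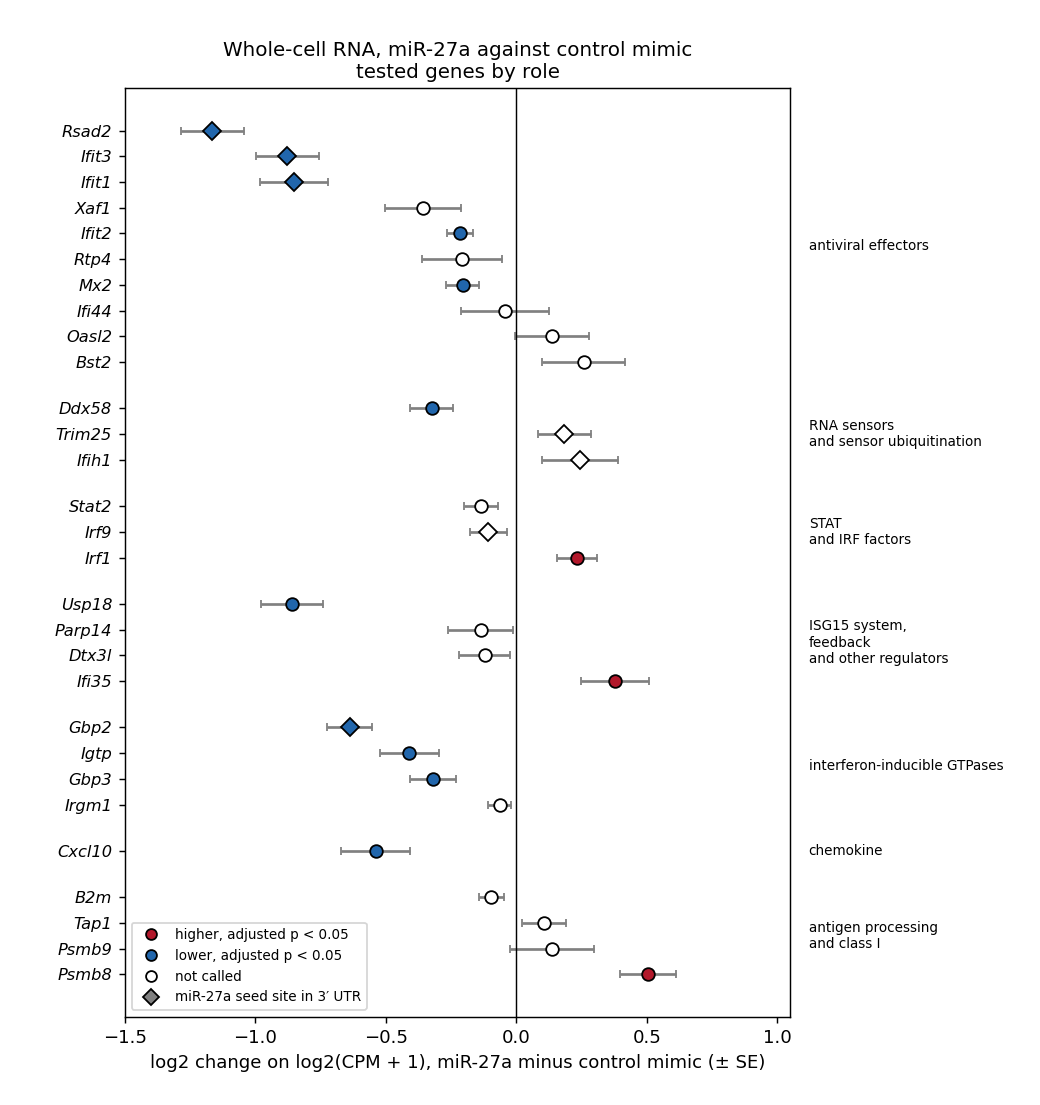
Log2 change on log2(CPM + 1) with its standard error in whole-cell RNA, miR-27a minus control mimic, for 29 tested genes grouped by role; blue and red points passed an adjusted p of 0.05 and diamonds mark a miR-27a seed site. Rsad2, Ifit3, Usp18, Ifit1 and Gbp2 lie farthest to the left, and Psmb8 at 0.50 farthest to the right.

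Set against the sequences above, 4 of the 7 genes with a seed site fell in whole-cell RNA (Rsad2, Ifit3, Ifit1 and Gbp2) and none rose. Among the 22 tested genes with no site, 7 fell and 3 rose. The median log2 change was -0.64 with a site and -0.13 without. The same 4 genes also hold an ISRE core, so that in those genes the motifs cannot be told apart. Of 13 tested genes with an ISRE core, 8 fell and none rose, with a median of -0.32, while of 12 with a promoter sequence and no ISRE core 1 fell and 3 rose, with a median of 0.12. Cxcl10, Ddx58, Gbp3 and Igtp fell with an ISRE core and without a seed site. Stat2, Irgm1, B2m and Bst2, also with an ISRE core and no seed site, were not called, nor was Ifih1, which holds both. Usp18 and Mx2 fell with no seed site, and no promoter sequence was at hand for them. Over all genes, 11.9% were called lower and 13% higher. The shares called among all genes with the same site or motif were not counted. These counts therefore describe the listed genes and not the motifs, and no test was made of them.

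Other cell types moved in the same comparison. The summed level of 15 microglial markers was 77.3 to 78.6 CPM under miR-27a mimic and 77.0 to 80.4 CPM under control mimic, and 2 of 12 tested markers passed, 1 in each direction. Of these 12, 10 were below 0, with a median log2 change of -0.19, against -0.14 in the listed genes. The 12 astrocyte markers summed to 9020 to 9080 CPM and 10100 to 10200 CPM, with 7 lower and 2 higher. The 12 endothelial, mural and fibroblast markers summed to 58.1 to 62.9 CPM and 82.9 to 92.7 CPM, with 2 of 6 tested lower and 1 higher. The 8 neuronal markers summed to 214 to 241 CPM and 167 to 190 CPM, with 1 higher and 1 lower of 7 tested and a median log2 change of 0.03. The 5 markers of myelinating oligodendrocytes summed to 10600 to 10900 CPM and 11100 to 11600 CPM, with 2 lower and none higher. The part of these cell types in the falls of interferon genes was not tested.

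Single libraries were low across much of the set. In whole-cell RNA under miR-27a mimic, replicate 1 held the lowest value of the 3 libraries for 20 of 29 tested genes (69.0%), against 31.7% of all genes. In pulldown under control mimic, replicate 3 was lowest for 16 of 29 (55.2%), against 29.1% of all genes, and in pulldown under miR-27a mimic replicate 2 was lowest for 17 of 29 (58.6%), against 42.4%. In whole-cell RNA under control mimic the lowest value fell to replicates 1, 2 and 3 in 7, 11 and 11 genes.

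**Figure D3:**
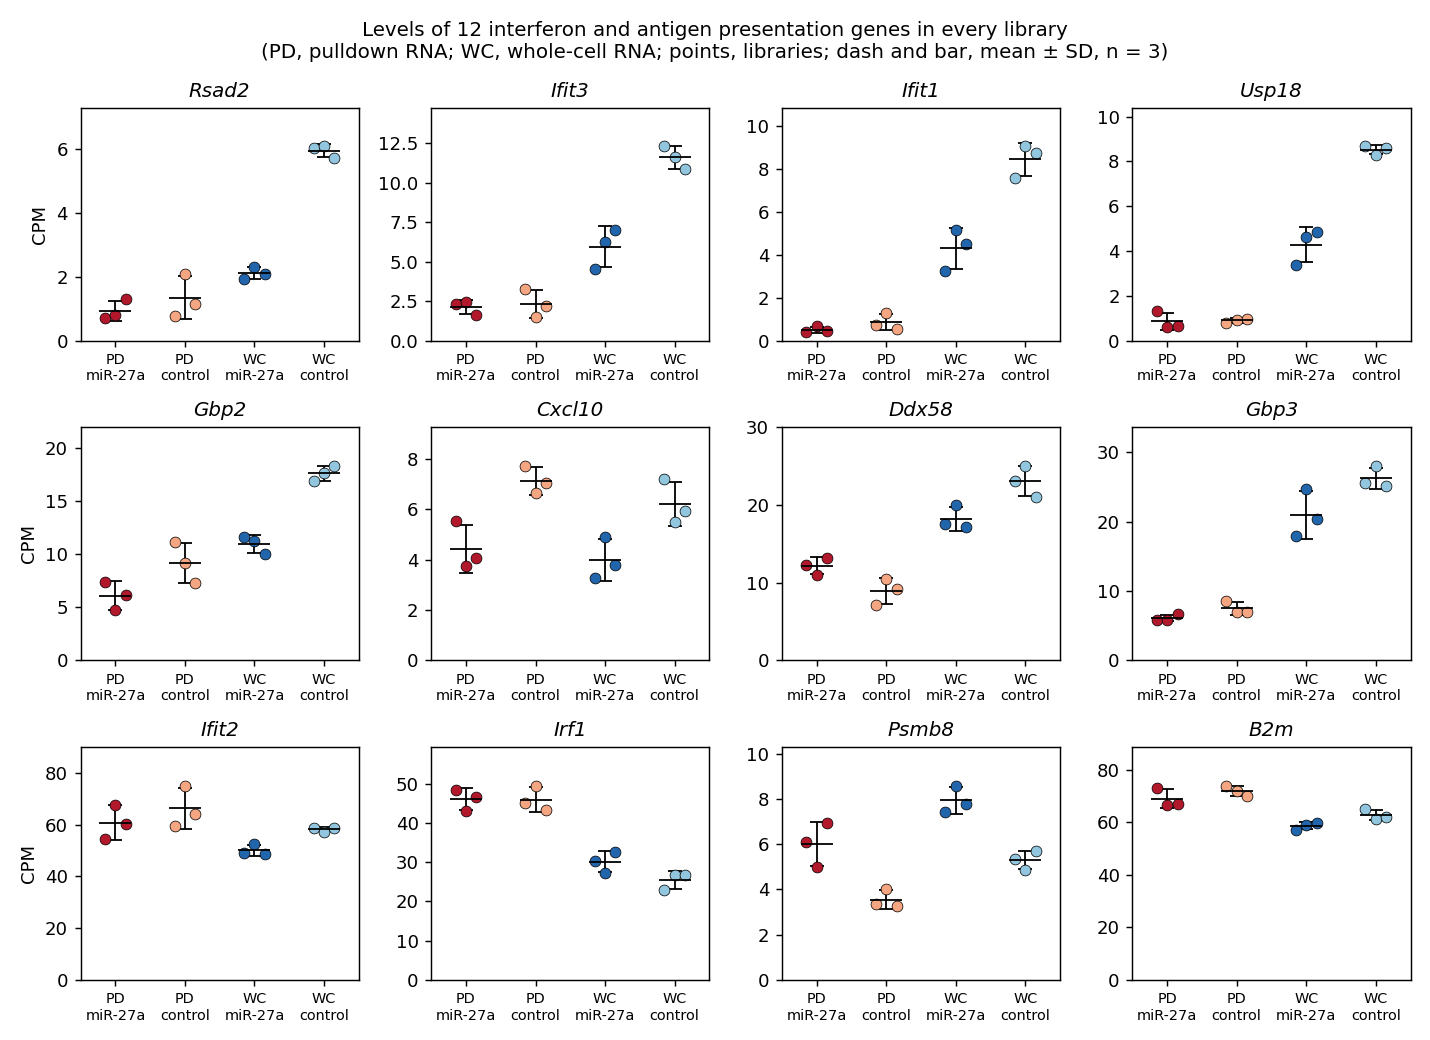
CPM of 12 listed genes in every library of pulldown RNA (red) and whole-cell RNA (blue), with the mean and SD of each group of 3 libraries; each axis starts at 0. Rsad2, Ifit3, Ifit1 and Usp18 are lower in whole-cell RNA under miR-27a than under control mimic, and all 4 are lower again in both pulldown groups.

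The second comparison asked which RNAs differed between the pulldowns with miR-27a and control mimic. Of 23 listed genes tested, 5 passed, 3 higher and 2 lower, against 13.1% of all 13586 genes (6.05% higher and 7.06% lower). Deviations of same-numbered pulldown libraries were weakly correlated, which does not establish that they were paired. With the replicate number as a block 8 passed, against 2743 of all genes. Ddx58 and Irgm1 were added as rises and Gbp2 as a fall (adjusted p = 0.0376, 0.0357 and 0.0172). The median log2 change was -0.05 in the listed genes and 0.00 in all genes. Without pulldown miR-27a replicate 3, and also with no filter on low values, only the Trim25 call was left, and without pulldown control replicate 1 or 3 there were 2 calls. The fit of all 12 libraries gave 11.

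Trim25 showed the largest rise. It had 10.5, 13.8 and 11.3 CPM in pulldown under miR-27a mimic, against 7.37, 5.94 and 7.10 CPM under control mimic, with no overlap (log2 change 0.72 ± 0.14, adjusted p = 0.00248). Of the 7 genes with a seed site, Trim25 was the only 1 called here; 5 were tested, with a median of -0.24. Psmb8 had 6.11, 4.97 and 6.94 CPM, against 3.36, 4.01 and 3.27 CPM (log2 change 0.62 ± 0.16, adjusted p = 0.0148). Bst2, which encodes tetherin, a protein that holds budding virions on the cell surface, had 4.04, 3.87 and 4.79 CPM, against 2.82, 2.28 and 2.21 CPM (log2 change 0.61 ± 0.16, adjusted p = 0.0181). None of these groups overlapped. The groups of Ddx58, Irf9, Ifi35, Parp14, Gbp3 and Irgm1, not called without the block, did not overlap either, nor did those of Irf7, which was not tested. The Psmb8 call was lost without miR-27a replicate 3 or control replicate 1 or 3 (adjusted p 0.0597 to 0.0983), and the Bst2 call without miR-27a replicate 3 or control replicate 2 or 3 (0.0638 to 0.108).

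The lower genes were Cxcl10 and Mx2. Cxcl10 had 5.53, 3.74 and 4.05 CPM in pulldown under miR-27a mimic, against 7.73, 6.64 and 7.06 CPM under control mimic (log2 change -0.59 ± 0.15, adjusted p = 0.0169). Mx2 had 17.02, 19.9 and 18.7 CPM, against 24.3, 23.2 and 23.3 CPM (log2 change -0.33 ± 0.10, adjusted p = 0.0447). The groups did not overlap in either gene. The Cxcl10 call was lost without miR-27a replicate 3 or control replicate 1 or 3 (adjusted p 0.056 to 0.0824). The Mx2 call was lost without any 1 library other than miR-27a replicate 2 (adjusted p 0.102 to 0.148).

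None of the 5 genes with the largest whole-cell falls was called in pulldown RNA without the block, and 2 of them were not tested. Rsad2 had 0.721, 0.791 and 1.30 CPM in pulldown under miR-27a mimic, against 0.779, 2.08 and 1.15 CPM under control mimic, and Ifit3 had 2.31, 2.42 and 1.63 CPM, against 3.24, 1.47 and 2.17 CPM. The groups overlapped in both, at log2 changes of -0.24 ± 0.22 and -0.05 ± 0.21. Ifit1 had 0.385, 0.659 and 0.465 CPM, against 0.719, 1.27 and 0.553 CPM, and Usp18 had 1.30, 0.615 and 0.652 CPM, against 0.779, 0.926 and 0.978 CPM; neither reached the limit for testing. Gbp2 had 7.41, 4.70 and 6.10 CPM, against 11.1, 9.11 and 7.27 CPM, also overlapping (-0.52 ± 0.17, adjusted p = 0.053).

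Ddx58 had 12.3, 11.03 and 13.2 CPM in pulldown under miR-27a mimic, against 7.13, 10.4 and 9.22 CPM under control mimic. The groups did not overlap, but the change of 0.42 ± 0.14 did not pass without the block (adjusted p = 0.0623). Ifi35 had 2.16, 2.33 and 1.86 CPM, against 1.02, 1.78 and 0.808 CPM (0.52 ± 0.20, adjusted p = 0.0961). Gbp3 had 5.77, 5.85 and 6.61 CPM, against 8.57, 6.91 and 6.93 CPM, and Igtp had 4.95, 3.25 and 5.31 CPM, against 4.55, 5.64 and 4.25 CPM. Ifit2 had 54.2, 67.6 and 60.3 CPM, against 59.5, 75.0 and 64.1 CPM, and Irf1 had 48.5, 43.0 and 46.7 CPM, against 45.1, 49.5 and 43.2 CPM. These last 4 genes did not pass, with adjusted p between 0.261 for Gbp3 and 0.98 for Irf1.

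Of 79 tested genes on the 6 lists of other pathway genes, 12 passed (15.2%), 6 higher and 6 lower, against 13.1% of all genes. H2-T23, a non-classical class I gene, was higher in pulldown under miR-27a mimic by 0.72 ± 0.15 (adjusted p = 0.00521), Zc3hav1, an antiviral RNA-binding protein, by 0.80 ± 0.14, and Gbp6 was lower, at -0.90 ± 0.16. Of 27 other interferon-induced genes tested, 1 was higher and 1 lower. Astrocyte markers summed to 5050 to 5800 CPM in pulldown under miR-27a mimic and 6700 to 6890 CPM under control mimic. The 5 markers of myelinating oligodendrocytes summed to 3730 to 4770 CPM and 5090 to 5690 CPM, with 4 lower. The part of either cell type in these differences was not tested.

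The third comparison set pulldown RNA against whole-cell RNA under each mimic. It asks which RNAs were recovered above or below their share of the cell's RNA. The contrasts come from the fit of all 12 libraries, with the spread pooled over the 4 groups, and they share their libraries with the mimic comparisons. Under miR-27a mimic 24 of 29 tested genes passed, 3 higher and 21 lower, against 60.2% of all 13875 genes (29.3% higher and 30.9% lower). Under control mimic 26 of 29 passed, 3 higher and 23 lower, against 62% of all genes (31.7% higher and 30.3% lower). Ifit1, Usp18, Oasl2, Ifih1, Ifi44 and Xaf1 were below the limit in the pulldown comparison and entered this fit through their whole-cell values. For these genes the filter itself favours a lower level in pulldown, and all of them are among the falls under both mimics. The counts above and the medians that follow include them, and are to that extent set by the filter. The median log2 change was -0.50 under miR-27a mimic and -0.65 under control mimic in the listed genes, and -0.01 and 0.02 in all genes. Scaling by library totals moved the median of all genes by less than 0.1.

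On log2(CPM + 1), Ifit1 had the largest fall from whole-cell to pulldown RNA of the 29 tested genes under both mimics. Its log2 changes were -1.80 ± 0.17 under miR-27a mimic and -2.37 ± 0.17 under control mimic. By the ratio of mean CPM, Ifi44 was lower than Ifit1 under control mimic (0.0409 against 0.1). It averaged only 0.0386 CPM in that pulldown group. Usp18 was lower by -1.52 ± 0.15 and -2.33 ± 0.15, Ifit3 by -1.15 ± 0.18 and -1.97 ± 0.18, and Gbp3 by -1.63 ± 0.12 and -1.69 ± 0.12. On the CPM scale Gbp3 averaged 6.08 ± 0.46 in pulldown and 21.0 ± 3.4 in whole-cell RNA under miR-27a mimic, and 7.47 ± 0.95 and 26.3 ± 1.5 under control mimic. Oasl2, related to the oligoadenylate synthetases, was lower by -1.24 ± 0.18 and -1.06 ± 0.18, and Ifih1 by -0.99 ± 0.18 and -1.14 ± 0.18. All changes named here passed in both contrasts. Ifit1, Ifi44, Usp18, Oasl2 and Ifih1 entered this fit through their whole-cell values, so their falls and ranks are partly set by the filter. Ifit3 and Gbp3 were also tested in the pulldown comparison.

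Not all of the genes were depleted. Irf1 was higher in pulldown by 0.60 ± 0.09 under miR-27a mimic and 0.83 ± 0.09 under control mimic, and B2m by 0.23 ± 0.06 and 0.19 ± 0.06. Ifit2 was higher under miR-27a mimic (0.27 ± 0.09, adjusted p = 0.0109) and not called under control mimic (0.18 ± 0.09, adjusted p = 0.0802, or 0.0442 with the replicate block). Tap1 was higher under control mimic (0.33 ± 0.11) and not called under miR-27a mimic (-0.04 ± 0.11), and its call was lost without control replicate 1 of either RNA kind (adjusted p = 0.0848 and 0.0999). Its annotated exons share 212 bases with Psmb9 on the opposite strand. Cxcl10 did not pass under either mimic, at 0.12 ± 0.15 and 0.18 ± 0.15.

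All 5 tested receptor genes were higher in pulldown RNA under both mimics, with Ifnar1 at 0.66 ± 0.06 and 0.54 ± 0.06 and Ifnar2 at 0.84 ± 0.08 and 0.78 ± 0.08. Of 20 other antigen presentation genes tested, 7 were higher and 4 lower under miR-27a mimic, and 10 higher and 5 lower under control mimic, with the class I heavy chain gene H2-D1 higher by 0.67 ± 0.08 and 0.64 ± 0.08. Eif2ak2 was lower by -1.04 ± 0.10 and -1.33 ± 0.10. Of 6 other GTPases tested, 5 were lower under miR-27a mimic and 6 under control mimic.

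Progenitor and other cell markers also differed between the RNA kinds. Under miR-27a mimic, 8 progenitor markers summed to 3620 to 4010 CPM in pulldown and 1690 to 1750 CPM in whole-cell RNA, and under control mimic to 3190 to 3250 CPM and 1620 to 1660 CPM. Astrocyte markers summed to 5050 to 5800 CPM in pulldown and 9020 to 9080 CPM in whole-cell RNA under miR-27a mimic, and to 6700 to 6890 CPM and 10100 to 10200 CPM under control mimic. Microglial markers summed to 105 to 118 CPM and 77.3 to 78.6 CPM under miR-27a mimic, with 2 of 13 tested higher and 3 lower, and to 97.4 to 108 CPM and 77.0 to 80.4 CPM under control mimic, with 2 higher and 1 lower. Markers of myelinating oligodendrocytes summed to 3730 to 4770 CPM in pulldown and 10600 to 10900 CPM in whole-cell RNA under miR-27a mimic, and to 5090 to 5690 CPM and 11100 to 11600 CPM under control mimic, and all 5 were lower under both. Neuronal markers were lower in 6 of 7 tested genes under miR-27a mimic and 5 of 7 under control mimic, and endothelial, mural and fibroblast markers were higher in 7 of 10 and lower in 2 of 10 under each. The part of cell type in the depletion of interferon genes was not tested.

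**Figure D4:**
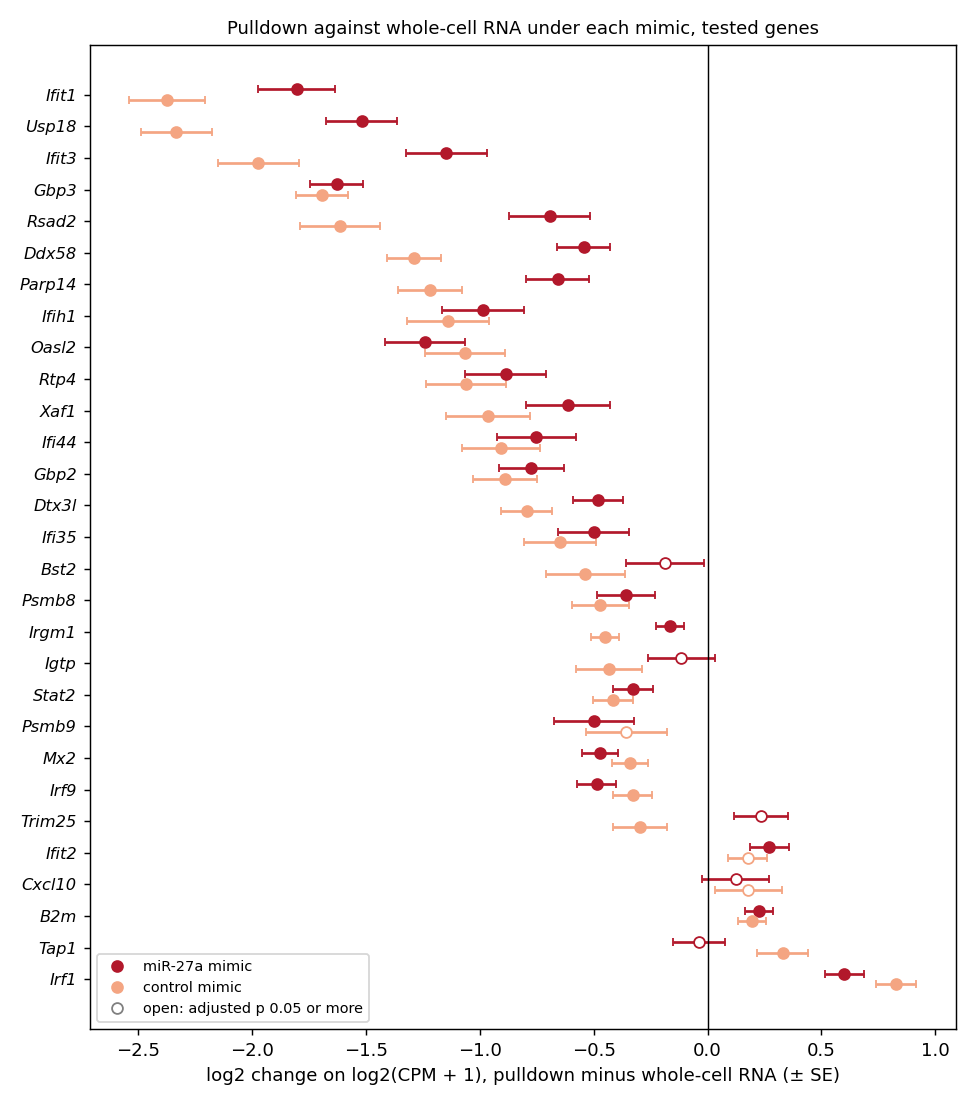
Log2 change on log2(CPM + 1) with its standard error, pulldown minus whole-cell RNA, for 29 tested genes under miR-27a mimic (dark red, above) and control mimic (light, below); open points did not pass. Most genes lie left of 0 under both mimics, with Ifit1 lowest and Irf1 highest under each. Ifit1, Usp18, Oasl2, Ifih1, Ifi44 and Xaf1 entered through their whole-cell values, and for them the filter favours a fall.

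The last comparison tested whether recovery in the pulldown, relative to whole-cell RNA, differed between the mimics. Of 29 listed genes, 1 passed and was higher, Ddx58, against 1.07% of all 13875 genes (0.339% higher). Its log2 changes of pulldown over whole-cell RNA were -0.54 ± 0.12 under miR-27a mimic and -1.29 ± 0.12 under control mimic, a difference of 0.75 ± 0.17 (adjusted p = 0.0373). The groups behind it are the 4 given above, with every miR-27a library above every control library in pulldown RNA and below every control library in whole-cell RNA. The call was lost without any 1 of 9 libraries (adjusted p 0.0519 to 0.128) and with no filter on low values (0.111). No seed site was found in the Ddx58 3′ UTR. Over the listed genes, the median difference was 0.53 in the 7 tested with a seed site and 0.13 in the 22 without. This difference is the pulldown change minus the whole-cell change, so the whole-cell falls described above enter it. In the pulldown comparison itself the median was -0.24 in the 5 tested genes with a site and -0.02 in the 18 without. No gene with a site was called, and the split was not tested.

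The largest differences did not pass. They were 0.92 ± 0.25 for Rsad2 (adjusted p = 0.0844), 0.83 ± 0.25 for Ifit3 (0.137) and 0.81 ± 0.22 for Usp18 (0.0823). All 3 have under 3 CPM on average in the pulldown groups, and a pseudocount of 4 CPM in place of 1 brought them past the threshold at differences of 0.60, 0.63 and 0.59. Trim25, with 0.53 ± 0.17, did not pass (adjusted p = 0.148). The median difference was 0.15 in the 29 genes and -0.01 in all genes, and 9 of the 29 (31.0%) had an unadjusted p under 0.05, against 13.0% of all genes.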

How the data were processed

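The authors deposited log2 CPM for 20540 genes in 12 libraries. Per the series text, the authors aligned trimmed reads of a stranded total RNA kit to GRCm38 with HISAT2, counted them per gene with featureCounts and normalised them with edgeR. The sources used here give no versions, and the submitters' processing notes also name mm8, without a role. All values came out as whole reads (tolerance 0.01 reads), with normalisation factors of 0.961 to 1.055, so CPM was recovered. All 12 sample columns were matched by title, and 0 columns were left unmatched.

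Values were tested as log2(CPM + 1) with limma 3.58.1 (R 4.3.3) and its moderated variance with a trend, two-sided. Genes at 1 CPM or more in 3 or more of the libraries fitted were tested, with Benjamini-Hochberg adjustment over all genes tested at 0.05. Because the table holds log2 values and not counts, no count model was fitted; limma voom on the recovered reads was an alternative. Mimic comparisons used 6 libraries and the others 12. Deviations of same-numbered libraries correlated at 0.107 to 0.275 between the 2 pulldown groups and at -0.034 to 0.001 between the 2 whole-cell groups. Between pulldown and whole-cell RNA they correlated at 0.015 to 0.161 under miR-27a mimic and -0.097 to 0.012 under control mimic. Differently numbered libraries reached 0.222 (whole-cell control replicate 1 with pulldown miR-27a replicate 2), so these values do not establish pairing. Scripts were tested on simulated data.

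Gene models, 3′ UTRs and overlaps came from GENCODE M21 (GRCm38), which matched 18013 of the genes by symbol, and promoters and microRNAs from RefSeq. Other steps used pandas 2.3.3, numpy 2.4.6 and matplotlib 3.10.9 under Python 3.11.15. Listed genes, marker lists and other pathway lists (127 of 149 pathway symbols were in the table) were chosen with earlier results of these data known. Named were all listed genes, with values in every library for those called in a mimic comparison or in the difference between mimics, up to 4 genes with the smallest p of each other list, and fixed markers. H2-K1 and H2-D1 in whole-cell RNA were named after their values were seen. Some genes of the other pathway lists that this rule names are not reported here.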

Additional observations from a re-analysis of the deposited data

Results flagged for a closer look

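Ddx58 differed between the mimics in its recovery by pulldown relative to whole-cell RNA, by a test of that difference itself. The difference was 0.75 ± 0.17 on the log2 scale (SE, adjusted p = 0.0373), with log2 changes of pulldown over whole-cell RNA of -0.54 ± 0.12 under miR-27a mimic and -1.29 ± 0.12 under control mimic. It was past the threshold in 10 of 20 alternatives, with adjusted p from 0.00366 to 0.128.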

How the results depend on the processing

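Over 70 calls on listed genes in the 5 comparisons, 1282 alternative values were computed. Of these, 1205 kept direction and call, 77 kept direction and lost the call, and 0 changed direction. Direction could not change in many of them. The replicate block, the fit of all 12 libraries and leaving out a library outside the contrast leave the estimated change as it was. The 26 and 24 calls of pulldown against whole-cell RNA supply most of these values, so the totals say little about the mimic comparisons. In whole-cell RNA, calls on listed genes (14 in all) numbered 7 in the fit of all 12 libraries and 9 to 14 with 1 library left out, and calls on all genes (3335) numbered 1415 and 2379 to 3294. In pulldown RNA, calls on listed genes (5) numbered 1 with no filter on low values, 3 with a filter of 5 CPM, 8 with the replicate block, 11 in the fit of all 12 libraries and 1 to 6 with 1 library left out. Calls on all genes there (1781) numbered 2743 with the replicate block, 3051 in the fit of all 12 libraries and 969 to 2691 with 1 library left out, the highest without miR-27a replicate 2. For the difference in recovery between mimics, calls on listed genes (1) numbered 4 with a pseudocount of 4 CPM, 0 with no filter and 0 to 3 with 1 library left out, and on all genes (149) 73 with no filter and 43 to 473 with 1 library left out. The causes were not tested. The replicate block moved no other count by over 1.5 times; the whole-cell comparison had 13 calls on listed genes with it, Ifi35 being lost (adjusted p = 0.0505). With 3 libraries a group and genes near 1 CPM in pulldown RNA, small differences there were not detectable.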
